A study of Mus musculus with 8 samples.

Results

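The expression of 10 genes of neuronal calcium signalling was examined in the hippocampus of wild-type and Mbd2-/- mice. They encode the subunits of calcium/calmodulin-dependent protein kinase II (CaMKII; Camk2a, Camk2b, Camk2d, Camk2g), CaMKIV (Camk4), the kinases that activate it (Camkk1, Camkk2), the catalytic subunits of calcineurin (Ppp3ca, Ppp3cb) and the transcription factor CREB (Creb1). The genes were chosen by symbol, and all 10 were found among the 19201 genes of the table and had enough reads to be tested. Each genotype gave 4 libraries. For a library, RNA came from pooled hippocampi of 2 mice, which were 10 to 12 weeks old, on the C57BL/6 background and bred as littermates from heterozygous parents. Mbd2 encodes a reader of DNA methylation, and in the Mbd2-/- line it is disrupted in the germline while its first exon stays intact. Ribosomal RNA was depleted from total RNA, paired ends of 100 bases were read, and the values are normalized counts, taken from their whole-read steps to be reads on a gene divided by a size factor of the library. Replicates are pools, so p-values measure the spread between these pools, and fewer cells of a type cannot be told apart from less RNA per cell in dissected tissue.

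When calcium enters a neuron it binds calmodulin, and the complex switches on CaMKII, the CaMKK to CaMKIV cascade and calcineurin. CaMKII is a ring of subunits that phosphorylates glutamate receptors and is needed for long-term potentiation, and its alpha and beta subunits are the abundant ones in forebrain neurons. Calcineurin is the opposing phosphatase and favours synaptic depression, whereas CaMKIV in the nucleus phosphorylates CREB, which then recruits coactivators to genes that carry a cyclic AMP response element.

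Reads on genes numbered from 8087750 to 23790825 per library, and the 10 genes were covered by between 315 and 125825 reads each in a library. Mbd2 was lower in the Mbd2-/- libraries, with 346 ± 34.4 normalized counts in wild-type and 260.04 ± 54.3 in Mbd2-/- hippocampi (SD, n = 4; log2 fold change -0.43 ± 0.12 SE, adjusted p = 0.0174 by limma with Benjamini-Hochberg adjustment). The groups overlapped, since Mbd2-/- replicate 3 had 339 and wild-type replicate 1 had 295, and an exact two-sided permutation test gave p = 0.0571. Reads from the intact first exon count towards the gene, so its level is a weak check of the labels. Of 14504 genes tested, 3185 (22.0%) were called at an adjusted p under 0.05, of which 1735 (12.0%) were higher and 1450 (10.0%) lower in Mbd2-/- hippocampi. Among the 10 genes, Camk2a was called higher, Camk2d was called lower and 8 were not called. The share called, 2 of 10, was near the share of all genes tested. Normalized counts of the genotypes did not overlap for Camk2a, Camk2d and Camkk1, against 23.6% of all genes tested. The median log2 fold change of the 10 genes was -0.07, with 2 above and 8 below 0, beside -9.10e-05 over all genes tested.

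Mbd2-/- replicate 4 stood apart from the other Mbd2-/- libraries. Longer transcripts were lower in Mbd2-/- libraries 1 to 3, where the log2 deviation from the mean of the wild-type libraries correlated with transcript length over 14182 genes at Spearman's rho of -0.484, -0.431 and -0.48, and this trend was weak in replicate 4 (-0.0963) and in the wild-type libraries (-0.0656 to 0.0647). These correlations are across genes, which are not independent. Without replicate 4 the number of genes called rose from 3185 to 5155. Replicate 4 was the highest of all 8 libraries for Camk4, Ppp3ca, Ppp3cb and Creb1, and for these the values without it are given as well.

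**Figure D1:**
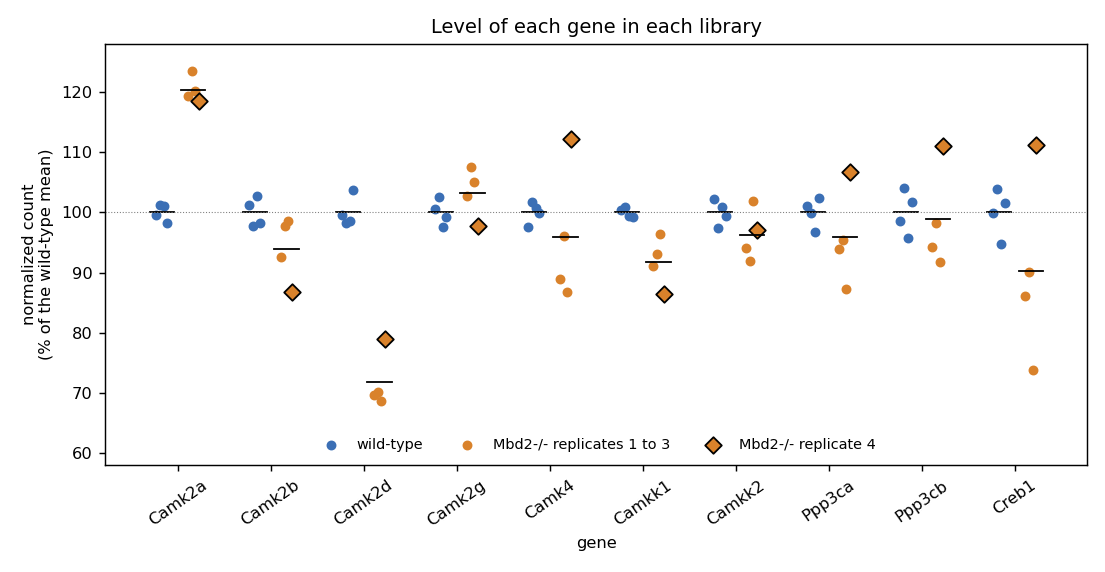
Normalized count of each of the 10 genes in each library, as a percentage of the wild-type mean of that gene (y axis; x axis, gene). Circles are wild-type (blue) and Mbd2-/- (orange) libraries, diamonds are Mbd2-/- replicate 4 and bars are group means. Camk2a lies above and Camk2d below all wild-type libraries, and replicate 4 lies above all other libraries for Camk4, Ppp3ca, Ppp3cb and Creb1.

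Camk2a, which encodes the alpha subunit that dominates CaMKII in excitatory neurons of the forebrain, rose in Mbd2-/- hippocampi. It lies at chr18:61085272-61147806 on mm9 (plus strand), and only 3 genes had a higher mean normalized count. The wild-type libraries had 67755, 68835, 68731 and 66829 normalized counts, and the Mbd2-/- libraries had 81232, 83984, 81732 and 80684. Each Mbd2-/- library thus exceeded each wild-type library, and replicate 4 was the lowest of the Mbd2-/- libraries by a small margin. The means were 68037 ± 941 and 81908 ± 1449 (SD, n = 4), a rise of 20.4%, with a log2 fold change of 0.27 ± 0.03 (SE; 95% confidence interval 0.19 to 0.34; adjusted p = 1.38e-04 by limma). Camk2a lies 9580 kb from Mbd2 on the same chromosome. Of 108 tested genes within 10 Mb of Mbd2, 27.8% were called, 11 higher and 19 lower, beside 19.4% of 377 tested genes on chromosome 18. The 377 include the 108, and Camk2a is counted in both. Of all genes tested, 22.0% were called. A knockout line can carry other alleles around the targeted gene, and the part of this position in the change of Camk2a was not tested.

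The delta subunit moved the other way. Camk2d encodes a CaMKII subunit that is prominent in heart and present at low level in hippocampus, and it lies at chr3:126299220-126547972 on mm9 (plus strand). It had 728, 719, 721 and 759.5 normalized counts in the wild-type libraries and 509, 513, 502 and 579 in the Mbd2-/- libraries. The groups were far apart, and within the Mbd2-/- group replicate 4 was nearest to wild-type. Camk2d fell by 28.2%, from 732 ± 18.9 to 526 ± 35.4 (SD, n = 4; log2 fold change -0.48 ± 0.06 SE, interval -0.61 to -0.35, adjusted p = 1.48e-04 by limma). With the length trend removed the log2 fold changes of Camk2d and Camk2a were -0.43 and 0.34, and both stayed called.

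Mbd2 protein binds methylated CpG, and the letters in which such sites could lie are shown for the gene that fell most of the 10. The stretch covers the 250 bases before the RefSeq start of transcription of Camk2d, at chr3:126299619-126299868 on mm9, plus strand, read 5′ to 3′ from the RefSeq promoter table (GRCm38.p6) and placed on mm9 by exact match. GENCODE vM1 starts the gene farther upstream, so the stretch lies inside the gene span given above. Capitals mark its 23 CpG dinucleotides.
Camk2d: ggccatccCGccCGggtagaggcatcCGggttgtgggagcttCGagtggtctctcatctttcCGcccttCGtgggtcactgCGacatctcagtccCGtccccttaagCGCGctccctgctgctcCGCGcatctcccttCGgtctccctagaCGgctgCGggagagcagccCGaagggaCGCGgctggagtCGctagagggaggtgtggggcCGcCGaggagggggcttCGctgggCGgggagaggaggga
The table held promoter entries for 6 of the 10 genes, with 10 to 44 CpG in this stretch. Creb1, Camkk1, Camkk2 and Camk2b, none of them called, held more than Camk2d, at 26, 29, 32 and 44. Ppp3cb, also not called, held 10. Over 32851 promoter windows the median was 6, and 13.3% held at least as many as Camk2d. Whether these CpG were methylated, or bound by Mbd2, was not analysed here.

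The beta and gamma subunits were not called. Camk2b, whose product anchors CaMKII to actin in spines, lies at chr11:5869647-5966365 on mm9 (minus strand). It had 18990, 18321, 19258 and 18439 normalized counts in wild-type libraries and 17373, 18323, 18476 and 16268 in Mbd2-/- libraries, and these ranges overlapped. Its log2 fold change was -0.09 ± 0.05 SE (interval -0.19 to 0.01, adjusted p = 0.165 by limma), with means of 18752 ± 446 and 17610.1 ± 1019 (SD, n = 4). It was -0.05 without Mbd2-/- replicate 4, -0.05 with the length trend removed and -0.0023 with both, and none of these was called. Camk2g, which encodes the subunit that can carry calmodulin to the nucleus, lies at chr14:21554097-21613310 (minus strand). Its 4 wild-type libraries ran from 2380.2 to 2505 and its Mbd2-/- libraries from 2386 to 2625 normalized counts, with a log2 fold change of 0.05 (interval -0.06 to 0.15, adjusted p = 0.540 by limma).

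To compare subunits with each other, normalized counts were divided by the longest transcript of the gene in kilobases. Per kilobase, Camk2a had 13689.6 ± 189 in wild-type hippocampi, Camk2b 4546 ± 108, Camk2g 659 ± 14.2 and Camk2d 167 ± 4.31 (SD, n = 4). The order was the same in Mbd2-/- hippocampi, at 16480.5 ± 292, 4269 ± 247, 681 ± 27.5 and 120 ± 8.08, and neighbours in it were separated by far more than their spread. As a share of the summed CaMKII level per kilobase, Camk2a went from 71.8% ± 0.395 to 76.5% ± 0.753, while Camk2b went from 23.8% ± 0.448 to 19.8% ± 0.748. Camk2d made up 0.875% ± 0.0331 in wild-type and 0.557% ± 0.0489 in Mbd2-/- hippocampi, and Camk2g 3.46% ± 0.0898 and 3.16% ± 0.0561. These shares rest on the longest annotated transcript and describe RNA, not subunits of the enzyme.

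Ratios within a library do not depend on its scaling, and 5 were compared with exact two-sided permutation tests, for which 4 libraries against 4 allow a smallest p of 0.0286. The Camk2a to Camk2b ratio of normalized counts was 3.57, 3.76, 3.57 and 3.62 in wild-type libraries and 4.68, 4.58, 4.42 and 4.96 in Mbd2-/- libraries. The groups did not overlap, and the ratio was 1.28-fold higher in Mbd2-/- hippocampi (exact p = 0.0286, Benjamini-Hochberg adjusted over the 5 ratios p = 0.0714). The ratio of Camk2d to Camk2g was 0.300 ± 0.0111 and 0.209 ± 0.0224 by genotype (SD, n = 4; exact p = 0.0286, adjusted p = 0.0714), again without overlap. The ratio of summed CaMKII to summed calcineurin counts was 3.72 ± 0.134 and 4.42 ± 0.421 (exact p = 0.0571, adjusted p = 0.0952), and here the groups overlapped because Mbd2-/- replicate 4 had 3.84 and wild-type replicate 3 had 3.90. Camkk1 to Camkk2 gave 1.35 ± 0.0330 and 1.29 ± 0.0688 (exact p = 0.171), and Ppp3ca to Ppp3cb gave 5.00 ± 0.139 and 4.85 ± 0.0963 (exact p = 0.143), both with an adjusted p of 0.171. No ratio passed 0.05 after adjustment.

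**Figure D2:**
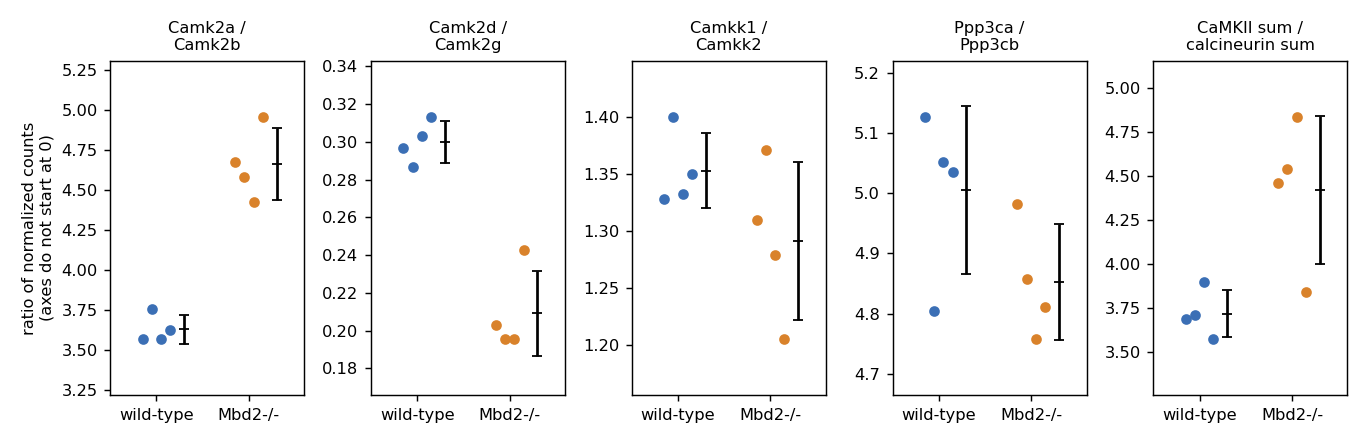
Ratio of normalized counts within each library for the 5 gene pairs or sums (y axis, ratio, x axis, genotype). Points are libraries, error bars are the mean and SD of 4, and the axes do not start at 0. Camk2a to Camk2b was higher and Camk2d to Camk2g lower in every Mbd2-/- library than in any wild-type library.

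The CaMKK to CaMKIV cascade showed small differences. Camkk1, an upstream kinase that phosphorylates CaMKIV and CaMKI, lies at chr11:72832510-72855575 on mm9 (plus strand). It had 2627, 2639, 2598 and 2595 normalized counts in wild-type libraries and 2383, 2436, 2520.0 and 2261 in Mbd2-/- libraries. The groups did not overlap and the difference was -8.21%, but it missed the threshold (log2 fold change -0.12 ± 0.05 SE, interval -0.23 to -0.02, adjusted p = 0.0773 by limma). Camkk1 was called without Mbd2-/- replicate 3 (log2 fold change -0.15, adjusted p = 0.0420) and with no other single library left out. With the length trend removed it was -0.10 (adjusted p = 0.157), and with replicate 4 also left out it was -0.07 (adjusted p = 0.259). Camkk2, which activates AMP-activated kinase as well as CaMKIV, lies at chr5:123183213-123229391 (minus strand), and its means were 1934 ± 40.1 and 1861 ± 83.5 (SD, n = 4), with a difference of -0.06 on the log2 scale (interval -0.16 to 0.05, adjusted p = 0.454 by limma).

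Camk4, which lies at chr18:33098695-33355421 (plus strand) and 37372 kb from Mbd2, had 1849.6, 1929.8, 1909 and 1893 normalized counts in wild-type libraries. The Mbd2-/- libraries had 1687, 1819.9, 1643 and 2128, so that 3 of them lay below every wild-type library and replicate 4 lay above. The log2 fold change was -0.07 ± 0.07 SE (interval -0.21 to 0.08, adjusted p = 0.524 by limma). Without replicate 4 it was -0.14 and called (adjusted p = 0.0191), whereas with the length trend removed it was 0.10 and not called (adjusted p = 0.141). Camk4 has the longest transcript of the 10 genes, 12331 bases, beside a median of 3188.5 over all genes tested. The direction for Camk4 therefore turned with the correction for length.

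Neither catalytic subunit of calcineurin was called. Ppp3ca, the alpha subunit and the main one in brain, lies at chr3:136333088-136600691 on mm9 (plus strand). It had 20411, 20175, 19522 and 20669 normalized counts in wild-type and 18968, 19269, 17638 and 21560 in Mbd2-/- libraries. As for Camk4, 3 Mbd2-/- libraries lay below the wild-type range and replicate 4 above it. The log2 fold change was -0.06 (interval -0.18 to 0.05, adjusted p = 0.407 by limma). Without replicate 4 it was -0.12 and called (adjusted p = 0.0116), and with the length trend removed it was 0.0016.

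Ppp3cb, the beta subunit, lies at chr14:21318586-21365795 (minus strand). It had means of 4037 ± 146 and 3991 ± 345 normalized counts (SD, n = 4), with Mbd2-/- replicate 4 highest at 4482. Its log2 fold change was -0.02 (interval -0.14 to 0.10, adjusted p = 0.841 by limma), and without replicate 4 it was -0.08 and not called (adjusted p = 0.164). It changed sign with the length trend removed (0.011) and without Mbd2-/- replicate 1 (0.0016) or 3 (0.014). Per kilobase, Ppp3ca had 4244 ± 103 and Ppp3cb 1054 ± 38.1 in wild-type hippocampi, so the alpha subunit was the higher of the pair, as it was in Mbd2-/- hippocampi (4069 ± 343 and 1042 ± 89.9).

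Creb1, at chr1:64579378-64651121 on mm9 (plus strand), had the largest SE of the 10 genes on the log2 scale. It had 829, 863, 786 and 842 normalized counts in wild-type libraries and 715, 748, 612 and 923 in Mbd2-/- libraries. Again replicates 1 to 3 lay below every wild-type library and replicate 4 above all of them. The means were 830.0 ± 32.6 and 749 ± 129 (SD, n = 4), and the difference of -9.71% was not called (log2 fold change -0.16 ± 0.09 SE, interval -0.36 to 0.03, adjusted p = 0.226 by limma). Without replicate 4 the log2 fold change was -0.27 and called (adjusted p = 0.00184). With the length trend removed it was -0.03 (adjusted p = 0.820), and with both changes it was -0.09 (adjusted p = 0.336), so no call for Creb1 held across these settings.

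**Figure D3:**
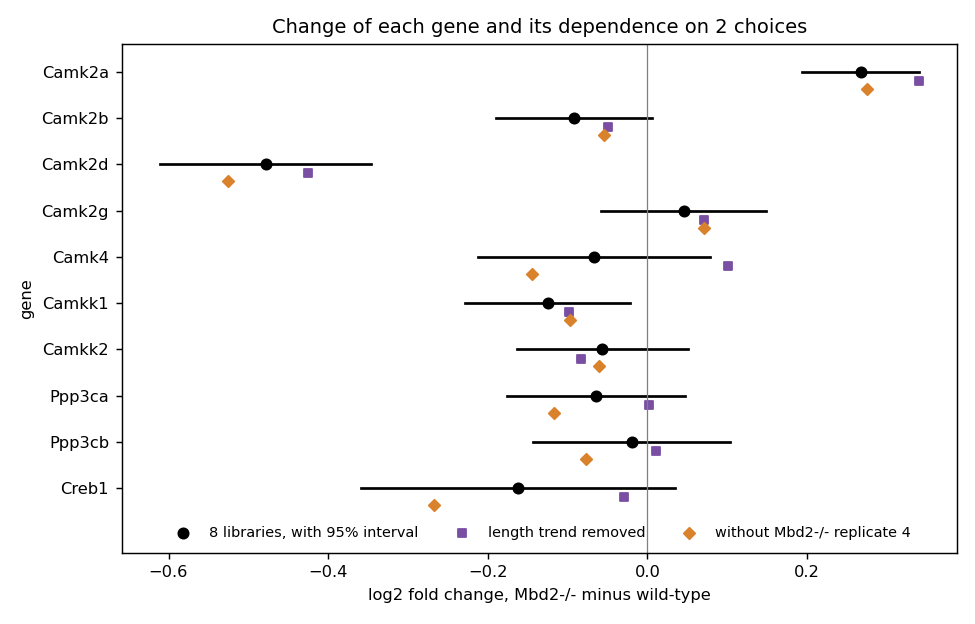
Log2 fold change (Mbd2-/- minus wild-type, x axis) of each of the 10 genes (y axis) with all 8 libraries and its 95% confidence interval, beside the values without Mbd2-/- replicate 4 and with the length trend removed. Camk2a lies above and Camk2d below 0 under all 3 settings, while Camk4, Ppp3ca and Creb1 lie farther below 0 without replicate 4 and near or above 0 with the length trend removed.

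The pattern most like that of Camk2a over the 8 libraries was that of Pygm, muscle glycogen phosphorylase, at a Pearson's r of 0.996 and a Spearman's rho of 0.952 between log2 values. Bcas1, a gene of the oligodendrocyte lineage, followed at 0.992 and Sostdc1, a choroid plexus marker, at 0.990. For Creb1 they were Robo2, an axon guidance receptor (r = 0.992, rho = 0.976), Fam126b and the actin nucleation subunit gene Actr2 (both r = 0.985). These values describe 8 points that include the genotype difference and the position of replicate 4, and all points of a library share its depth.

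Genes around the pathway were taken from 7 lists chosen by function. Of 65 genes listed, 64 were tested, and 9 were higher, 14 lower and 41 not called, with a median log2 fold change of -0.03. These shares, 9 and 14 of 64, stand beside 12.0% and 10.0% of all genes tested, as do the counts of each pathway list below. With the length trend removed, 6 were higher and 9 lower, beside 1140 and 971 of 14182 genes. Which genes kept their call is not reported, so the calls of pathway genes named below are without this correction. The counts also moved with single libraries, from 6 to 15 higher and from 6 to 21 lower when each library was left out in turn, and both upper values came without Mbd2-/- replicate 4. Leaving out wild-type replicate 3 gave the smallest number lower, 6. The numbers over all 14504 genes moved too, to 2596 higher and 2559 lower without Mbd2-/- replicate 4 and to 1190 and 878 without wild-type replicate 3.

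Among calmodulin genes and the proteins that hold calmodulin, 1 of 6 was called. The list's median was 0.12. Of 7 other CaM kinases and CaMKII inhibitors 3 rose and none fell, with a median of -0.01. Camk2n1, which encodes a protein that binds and inhibits active CaMKII, had 8293, 9314, 8727 and 9154 normalized counts in wild-type and 10606, 9929.65, 10426 and 10329 in Mbd2-/- libraries. The groups did not overlap (log2 fold change 0.22, adjusted p = 0.00404 by limma). Camk1, a kinase of the CaMKK cascade, rose from 360 ± 9.65 to 485 ± 68.7 (0.42, adjusted p = 0.00332), and the related Pnck rose by 0.25 on the log2 scale (adjusted p = 0.0240). For Pnck the groups overlapped, since Mbd2-/- replicate 4 had 842 normalized counts and the wild-type libraries 804 to 857.

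Of 12 calcineurin partners and NFAT factors 11 were tested, since Ppp3r2 fell under the filter with group means of 4.11 and 3.59 normalized counts. None rose and 2 fell. Cabin1, a calcineurin inhibitor, had a log2 fold change of -0.18 (adjusted p = 0.0288 by limma), and Akap5, the scaffold that holds calcineurin and protein kinase A at the synapse, had -0.23 (adjusted p = 0.0435). Akap5 followed the pattern seen for Creb1, with 737, 721 and 663 normalized counts in Mbd2-/- replicates 1 to 3, 902 in replicate 4 and 874 to 889.7 in wild-type libraries. Ppp3r1, the regulatory subunit of calcineurin, had means of 11298 ± 754 and 11151 ± 1189 (SD, n = 4), a difference of -0.02 on the log2 scale (adjusted p = 0.846).

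Of 7 CREB relatives and coactivators 1 rose and 2 fell, with a median of -0.12. Crtc1, the calcineurin-regulated CREB coactivator of neurons, rose (0.14, adjusted p = 0.0310 by limma), Crtc3 fell (-0.23, adjusted p = 0.0434) and the acetyltransferase gene Ep300 fell (-0.19, adjusted p = 0.0494). Among 13 genes known to be regulated through CREB, 5 fell and 1 rose, with a median of -0.12. Of all genes tested, 10.0% were called lower and 12.0% higher. Counts of this list alone with the length trend removed are not given. Egr1 went from 1470.5 ± 63.5 to 1167 ± 71.6 normalized counts (-0.33, adjusted p = 9.87e-04), and Nr4a2 from 643 ± 10.9 to 527 ± 18.6 (-0.29, adjusted p = 0.00285). Both are activity-induced transcription factors. The clock gene Per1 fell by 0.30 on the log2 scale (adjusted p = 0.00140), the kinase gene Sik1 by 0.22 (adjusted p = 0.0322) and Pcsk1, a prohormone convertase, by 0.41 (adjusted p = 0.00141). Sst, the neuropeptide somatostatin of a class of interneurons, rose from 1809 ± 150 to 2396 ± 339 (0.40, adjusted p = 0.00652). Its longest transcript has 599 bases, beside a median of 3188.5 over all genes tested. The part of transcript length in this rise was not tested.

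CREB binds the cyclic AMP response element, an 8-base palindrome searched as TGACGTCA, which reads the same on both strands. It occurred in 1.79% of 32851 RefSeq promoter windows (250 bases before to 50 after the start), in none of the 6 members with an entry, and in 3 of 10 CREB-regulated genes with an entry, which have 17 windows between them. These 3 are shown with 10 bases on each side, in the direction of transcription, with the element in capitals, because they carry it, and they had the lowest, the highest and a near-zero log2 fold change of the list. The mm9 positions are chr13:75227217-75227244 (plus strand) for Pcsk1, chr16:23890961-23890988 (minus) for Sst and chr17:26645543-26645570 (minus) for Dusp1, and the first base of the element lies 78, 48 and 143 bases before the RefSeq start.
Pcsk1: caggtagatcTGACGTCAagagatggct
Sst: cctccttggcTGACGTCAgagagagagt
Dusp1: gtagggcgggTGACGTCAccgcccggtc
These 3 genes did not move one way, and other genes that hold the element were not compared. Pcsk1 had 292, 272, 284 and 273 normalized counts in wild-type libraries and 200.5, 225, 199 and 216 in Mbd2-/- libraries. Sst had 1863, 1587, 1917 and 1868 against 2452, 2470.1, 2735 and 1927. Dusp1, a phosphatase of MAP kinases that was named after its values were seen, had 303 ± 22.9 and 304 ± 20.3 (log2 fold change 0.00, adjusted p = 0.974 by limma). A match in sequence does not show that CREB binds there in hippocampus.

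Of 12 genes for protein kinase A, calcium-regulated adenylyl cyclases and phosphodiesterases 3 fell and none rose, with a median of -0.13. They were the regulatory subunit Prkar2a (-0.22, adjusted p = 0.0171 by limma), the cyclase Adcy3 (-0.26, adjusted p = 0.00799) and the calmodulin-dependent phosphodiesterase Pde1a (-0.20, adjusted p = 0.0279). Adcy1, the calcium-stimulated cyclase and the highest of the list by normalized count, had 31419.5 ± 1506 and 31829.9 ± 2946 (0.02, adjusted p = 0.878). Of 8 genes for protein kinase C, protein phosphatase 1 and its inhibitors 3 rose and 2 fell, with a median of 0.13. Prkca, a conventional protein kinase C, fell by 0.18 on the log2 scale (adjusted p = 0.0219 by limma). The catalytic subunit Ppp1ca rose (0.30, adjusted p = 0.00418), as did the inhibitors Ppp1r1a (0.40, adjusted p = 0.00414) and Ppp1r1b, also called DARPP-32 (0.40, adjusted p = 0.00369).

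**Figure D4:**
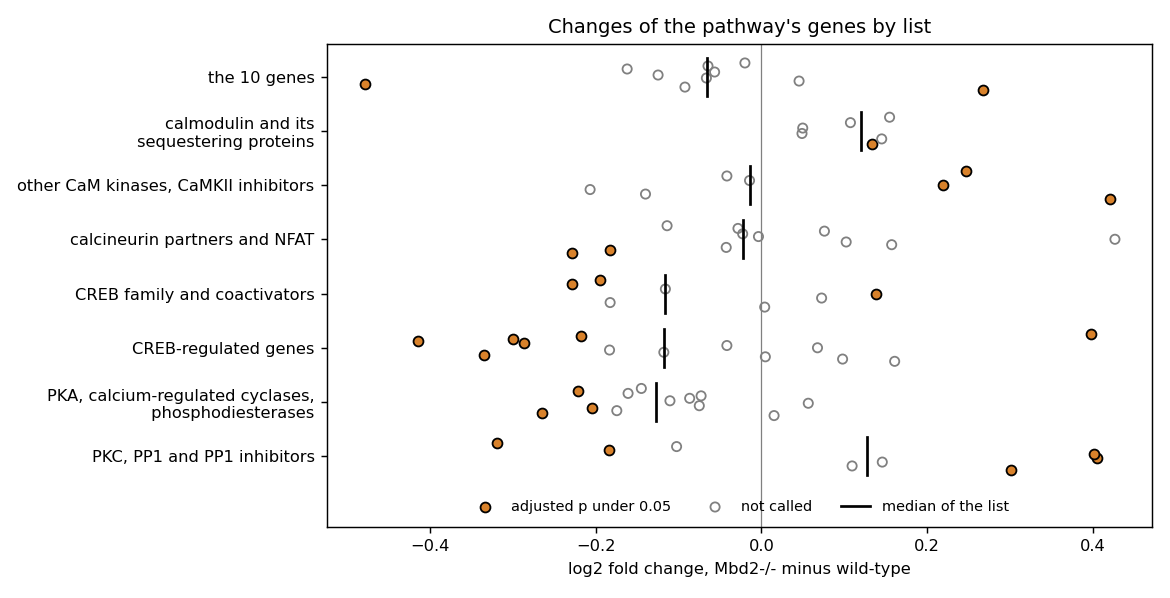
Log2 fold change (x axis, Mbd2-/- minus wild-type) of each tested gene by list (y axis), with the 10 genes in the top row. Filled points passed an adjusted p under 0.05, open points did not, and bars are medians. Called genes lie on both sides of 0 in 4 of the rows, counting the top one, and medians run from -0.13 to 0.13.

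The labelled tissue was checked against markers, and several sets moved with genotype. All 12 choroid plexus markers rose, with a median of 0.83 on the log2 scale and a summed level of 24051 to 25759 normalized counts in wild-type and 46515.5 to 53088 in Mbd2-/- libraries. Ttr, the most abundant, went from 12761 ± 648 to 32066 ± 3323. Of 10 thalamus markers 8 fell and none rose, with a sum of 5291 to 5434 against 3628 to 4154. Of 10 markers of hippocampal excitatory neurons, the main site of Camk2a expression, 4 fell and none rose, and the sums were 40066 to 40518 in wild-type and 34645 to 41439.7 in Mbd2-/- libraries. Slc17a7, their vesicular glutamate transporter, had 16296 ± 159 and 14805 ± 1461 (-0.14, adjusted p = 0.0838 by limma). None of the markers was at 0 in every library.

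Glial sets were higher. Of 7 oligodendrocyte markers 5 rose (75815 to 77158 against 89702 to 95894.5), of 7 astrocyte markers 5 rose (106321 to 108895 against 116122 to 140080, the latter in replicate 4) and of 8 microglial markers 6 rose (4364 to 4519 against 4803 to 5587), with none lower in these 3 lists. Most of the astrocyte sum came from Slc1a2, with 86064 ± 876 in wild-type and 97196 ± 11202 in Mbd2-/- hippocampi. Slc1a2 was not called (adjusted p = 0.0525 by limma). Of 9 GABAergic markers 4 rose and 3 fell, with sums of 10625 to 11034 against 9718 to 10835, and of 6 endothelial markers 1 rose, with sums of 1757 to 1854 against 1797 to 1974. The part of these shifts in the changes of Camk2a, Camk2d and Sst was not tested.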

How the data were processed

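The authors depleted ribosomal RNA, removed duplicated reads, aligned to mm9 with STAR and compared genotypes with DESeq2, whose versions, like the counting tool, are not given in the sources used here. The deposited signal was inferred to be reads per gene over each library's DESeq2 size factor, because 100% of values were whole multiples of 1 step per library to within 0.01 of a read. Columns deposited by the authors for their own comparison (mean, log2 fold change and its error, Wald score, p-value and adjusted p-value) were not used. Only genes averaging 10 or more normalized counts entered limma 3.58.1 (R 4.3.3; trend, robust), which was run on log2(normalized count + 1). Calls required an adjusted p (Benjamini-Hochberg) under 0.05. The pseudocount of 1 means that folds of low genes are understated. Fold changes are Mbd2-/- minus wild-type and ± is SD over 4 libraries unless named SE. Coordinates are from GENCODE vM1 on mm9, matched by symbol for 18097 of 19201 genes (94.3%). Genes sharing reads with near-identical copies, and transcripts of 1 gene, cannot be told apart.

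Alternatives were edgeR 4.0.16 and DESeq2 1.42.0 on recovered reads, TMM and upper quartile scaling, other filters and pseudocounts, limma without trend and robust, removal of a loess trend on transcript length (span 0.5), a replicate block and leaving out each library. The combination of length correction and leaving out Mbd2-/- replicate 4 was added after seeing the data. The 10 genes and the lists were chosen with earlier results of these data known. Named are the 10 genes, Mbd2, called genes and the 2 most abundant of each pathway list, the 2 most abundant markers and the 3 genes most like Camk2a and Creb1, though not all are printed. Some called genes of the pathway lists are counted but not reported here by name.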

Additional observations from a re-analysis of the deposited data

Results flagged for a closer look

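Of 32 groups of 4 libraries checked (the 10 genes, Mbd2 and the 5 ratios in each genotype), 2 had a library farther from the others than Dixon's 95% critical value allows, and chance flags about 1 in 20 groups. For Camk2d, Mbd2-/- replicate 4 had 579 normalized counts while the other Mbd2-/- libraries had 502 to 513 (gap over range 0.857). For the ratio of Camk2d to Camk2g, the same library had 0.242 while the others had 0.195 to 0.203 (gap over range 0.834). Both values concern the same measurement of Camk2d and lie between the other Mbd2-/- libraries and the wild-type range.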

How the results depend on the processing

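Camk2a was called higher and Camk2d lower under each of the 20 alternatives, with log2 fold changes of 0.26 to 0.37 and -0.53 to -0.43, and the highest adjusted p values were 0.0124 and 0.00559 (both limma without trend and robust). The number of the 10 genes called lower was 1 under the 12 alternatives with other settings and 1 to 4 with 1 library left out (2 without Mbd2-/- replicate 3, 4 without replicate 4). Pathway genes called higher were 6 to 9 under other settings and 6 to 15 with 1 library left out. Those called lower were 8 to 16 under other settings (9 with the length trend removed, 8 with limma without trend and robust, 16 with a filter at a mean of 50 or upper quartile scaling) and 6 to 21 with 1 library left out. The cause was not tested. Signs reversed with the length trend removed for Camk4 (0.10, and 0.091 when Mbd2-/- replicate 4 was also left out), Ppp3ca (0.0016) and Ppp3cb (0.011), and for Ppp3cb also without Mbd2-/- replicate 1 (0.0016) and replicate 3 (0.014). None of these was called. With 1 library left out, Ppp3cb ran from -0.077 to 0.014. The 5 ratios kept their direction under the alternatives tried. With 1 library left out, the smallest exact p is 0.0571, so these tests cannot pass 0.05. Mbd2 lost its call with limma without trend and robust (adjusted p = 0.0731) and without wild-type replicate 3 (0.0625), Mbd2-/- replicate 1 (0.0542) or replicate 2 (0.0579).

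Libraries of the same replicate number did not deviate together (correlations of -0.103, -0.057, 0.0742 and 0.0355). The labels do not say whether the numbers pair animals, and these correlations cannot exclude it. With a replicate block, 1 of the 10 genes was higher and 1 lower, 8 pathway genes were higher and 14 lower, and the log2 ratio of Camk2a to Camk2b differed by 0.36 (exact p = 0.125, the smallest that 4 pairs allow). Over all genes the number called was 3185, and it was 3172 with edgeR, 2970 with DESeq2, 2111 with the length trend removed, 5155 without Mbd2-/- replicate 4 and 2068 to 2937 without any other library. Camk2d had the fewest reads of the 10 genes, from 315 to 1430 per library, and counting error was not separated from the spread between libraries.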
